A study of Neurospora crassa OR74A with 2 samples.

Results

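The glyoxylate cycle, acetate use and gluconeogenesis are described here through 5 genes of Neurospora crassa, out of 8564 genes measured. The 5 were chosen by identifier and not by a rule on their values, though with earlier results of these data known. They are acu-3 (NCU04230, isocitrate lyase), acu-9 (NCU10007, malate synthase), acu-5 (NCU06836, acetyl-CoA synthetase), acu-6 (NCU09873, phosphoenolpyruvate carboxykinase, PEP carboxykinase) and fbp-1 (NCU04797, fructose-1,6-bisphosphatase). All 5 were measured above 0 in both libraries. RNA was sequenced from 1 culture of the Δpp-1 deletion strain and 1 culture of the wild type (FGSC 2489), each started from conidia, the asexual spores of this filamentous fungus, and grown for 5 h at 30 °C. PP-1 is a transcription factor of the Ste12 family, and at this age wild-type germlings fuse with one another. The labels name no other allele or agent in either strain, and say neither what carbon source the medium held nor how many transformants the deletion strain stands for.

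Fungi that live on acetate or fatty acids make sugar from them by a short set of enzymes. Acetyl-CoA synthetase activates acetate, isocitrate lyase and malate synthase form the glyoxylate bypass that skips the carbon dioxide-releasing steps of the tricarboxylic acid (TCA) cycle, and PEP carboxykinase and fructose-1,6-bisphosphatase carry the carbon back up to hexose. In Neurospora the bypass enzymes lie in glyoxysomes, a form of peroxisome, and mutants in acu genes fail to use acetate. On sugar, carbon catabolite repression usually keeps these genes low in fungi.

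Levels are RPKM, reads per kilobase of gene and per 1000000 reads of the library, so genes can be compared with one another. The low values were spaced in steps that put the library totals at 9363920 reads for Δpp-1 and 7870074 for the wild type. With 1 library per strain there is no replicate check and no test, every value describes these libraries alone, and the 95% intervals below cover counting error only and assume that the smallest step is 1 read. Reads are not independent molecules where PCR copied them. The deleted gene itself stood at 1.69 RPKM in Δpp-1, against 83.8 RPKM in the wild type. The log2 fold of the median gene was -0.25 (Δpp-1 over wild type, log2 of RPKM + 1, over 6885 genes whose mean was 1 RPKM or more). A gene with equal RPKM in both libraries therefore lay above most others, and for the 5 genes each log2 fold is given both as deposited and relative to this median gene.

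The malate synthase and PEP carboxykinase genes had the largest differences of the 5, both toward Δpp-1. The isocitrate lyase and acetyl-CoA synthetase genes had nearly equal RPKM in the 2 libraries, and the fructose-1,6-bisphosphatase gene lay between these groups. As deposited, 4 of the 5 were higher in Δpp-1 and acu-5 was lower, where 2023 of the 6885 genes were higher. Relative to the median gene all 5 were higher, by 0.14 to 1.23 on the log2 scale, as were 3442 of the 6885 genes by definition. The median of the 5 was 0.38 as deposited and 0.63 relative to the median gene.

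**Figure D1:**
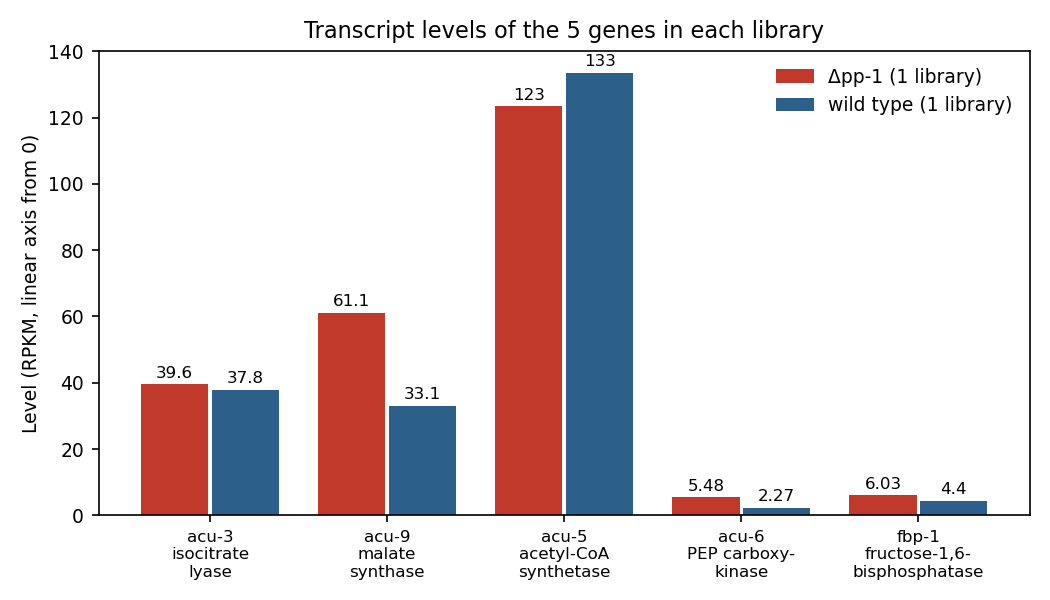
Levels in RPKM on a linear axis from 0, with 1 bar per library, Δpp-1 left of the wild type for each gene. The acu-9 bar reaches 61.1 RPKM in Δpp-1 and 33.1 RPKM in the wild type, while the acu-3 and acu-5 bars are nearly level and acu-6 and fbp-1 stay below 10 RPKM in both.

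The glyoxylate bypass has 2 enzymes of its own, and their genes differed in pattern. The gene acu-3, for the isocitrate lyase that splits isocitrate into glyoxylate and succinate, stood at 39.6 RPKM in Δpp-1 and 37.8 RPKM in the wild type. Its log2 fold was 0.06, or 0.31 relative to the median gene, and the 95% interval of the RPKM ratio, from 0.936 to 1.17, held 1. The gene acu-9, for the malate synthase that joins glyoxylate to acetyl-CoA, stood at 61.1 RPKM in Δpp-1 and 33.1 RPKM in the wild type. This was a ratio of 1.85, with an interval from 1.67 to 2.05, and a log2 fold of 0.86, or 1.11 relative to the median gene. The values of these genes matched whole reads, 723 in Δpp-1, against 581 in the wild type for acu-3, and 1190 and 542 in the same order for acu-9. By these values the bypass genes stood in opposite order in the 2 libraries. The ratio of acu-9 to acu-3 was 1.55 in Δpp-1 (interval 1.41 to 1.70), against 0.876 in the wild type (0.778 to 0.986). If 1 read were worth 2 steps, the wild-type interval would run from 0.740 to 1.04 and hold 1, so the order there is less sure. A ratio inside a library does not depend on how the libraries are scaled to each other, and that of acu-9 to acu-3 was 1.76 times as large in Δpp-1 as in the wild type (interval 1.52 to 2.05).

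Acetate enters this route through acu-5, whose acetyl-CoA synthetase makes acetyl-CoA from acetate. It was the most abundant of the 5 transcripts in both libraries, at 123 RPKM in Δpp-1 and 133 RPKM in the wild type. Its level exceeded that of 94.0% of all genes in Δpp-1, against 93.6% in the wild type. The log2 fold was -0.11 as deposited and 0.14 relative to the median gene, so its direction depends on the scaling. Beside acu-5, the bypass gene acu-9 stood at a ratio of 0.495 in Δpp-1, against 0.248 in the wild type, larger in Δpp-1 by a factor with an interval from 1.77 to 2.25. For acu-5 against acu-3 the ratio was 3.12 in Δpp-1, against 3.53 in the wild type, and the interval of the change between strains, 0.778 to 1.005, reached just past 1.

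The gluconeogenic genes were the least abundant of the 5. The gene acu-6, for the PEP carboxykinase that turns oxaloacetate into phosphoenolpyruvate, stood at 5.48 RPKM in Δpp-1 and 2.27 RPKM in the wild type, from 109 and 38 whole reads in the same order. This is a ratio of 2.41 with an interval from 1.65 to 3.59, the largest ratio among the 5 genes. On the log2 scale with 1 RPKM added, which understates differences of low genes, it was 0.99, or 1.23 relative to the median gene. The gene fbp-1, for the bisphosphatase that removes a phosphate from fructose-1,6-bisphosphate, stood at 6.03 RPKM in Δpp-1 and 4.40 RPKM in the wild type. Its ratio was 1.37, its log2 fold 0.38, or 0.63 relative to the median gene, and its interval, from 0.872 to 2.18, was wide and held 1. The ratio of acu-6 to fbp-1 was 0.908 in Δpp-1 (interval 0.649 to 1.28), where the levels could not be told apart at this depth, and 0.516 in the wild type (0.315 to 0.849), where acu-6 was the lower. The change of this ratio between strains, 1.76, had an interval from 0.951 to 3.22 that held 1. Set against the bypass and acetate genes, acu-6 took a larger place in Δpp-1. The level of acu-6 was 13.8% of that of acu-3 in Δpp-1, against 6.01% in the wild type, 2.31 times as high (interval 1.55 to 3.48). For acu-6 and acu-5 the shares were 4.44% in Δpp-1, against 1.70% in the wild type, 2.61 times as high (interval 1.78 to 3.90).

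**Figure D2:**
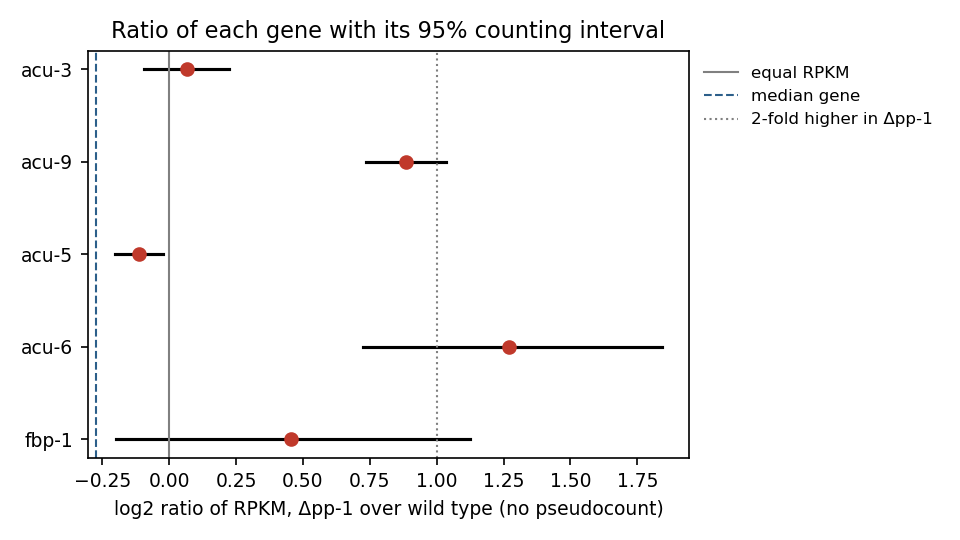
Each point is the log2 ratio of RPKM of 1 gene, Δpp-1 over wild type, with no pseudocount, and each bar its 95% counting interval. The intervals of acu-9 and acu-6 lie above the line of equal RPKM, those of acu-3 and fbp-1 cross it, that of acu-5 lies below it, and all 5 lie above the dashed line of the median gene.

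By order of level, Δpp-1 had acu-5, acu-9, acu-3, fbp-1 and acu-6, and the wild type had acu-5, acu-3, acu-9, fbp-1 and acu-6. The exchange of places was between acu-9 and acu-3. The level of acu-9 exceeded 87.2% of all genes in Δpp-1, against 75.7% in the wild type, and that of acu-6 38.4% in Δpp-1, against 26.02% in the wild type. For acu-3 these shares were 81.7% in Δpp-1, against 78.3% in the wild type, and for fbp-1 40.1% and 32.7% in the same order. Among these 6885 genes, 3.18% had a larger log2 fold than acu-6 and 3.99% a larger one than acu-9. For fbp-1, acu-3 and acu-5 the shares of genes with a larger fold were 11.6%, 24.9% and 37.7%. The median log2 ratio of all genes with no pseudocount was -0.27, and the counting interval lay above it for 5 of the 5 genes, or for 4, without fbp-1, if 1 read were worth 2 steps. By definition as many genes lie above a median as below it. The share of all genes whose interval lay above it was not computed, so this count does not set the 5 genes apart.

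A rule of size was used to read these differences against all genes, namely at least 2-fold on the log2 scale with 1 RPKM added, over genes that reached 10 RPKM in either library. Of the 5 genes, 3 reached that level (acu-3, acu-9 and acu-5), and 0 of these were 2-fold higher or lower. Of all 4831 genes at that level, 2.73% had such a difference upward in Δpp-1 and 6.98% downward. With each library scaled by its median, acu-9 passed the rule, so 1 of 3 was higher, where 4.35% of genes were higher and 4.53% lower. With no minimum level, 0 of the 5 passed as deposited, beside 2.94% of 8564 genes higher and 6.08% lower. With median scaling and no minimum level, acu-9 and acu-6 passed, 2 of 5, beside 4.41% higher and 4.02% lower. These shares are over few genes, and whether acu-9 and acu-6 count as 2-fold higher depends on the scaling, or for acu-6 also on the amount added before the log: with 0.1 RPKM added its log2 fold was 1.23, and with 5 RPKM added it was 0.53.

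The other measured genes named for acetate use had nearly equal RPKM in the 2 libraries, as acu-3 and acu-5 did, at lower levels than acu-5. The gene acu-8 (NCU09770), for an acetyl-CoA hydrolase, stood at 57.0 RPKM in Δpp-1 and 61.7 RPKM in the wild type, a log2 fold of -0.11. The gene acu-15 (NCU06656), for a transcription factor that activates acetate genes, stood at 18.9 RPKM in Δpp-1 and 17.4 RPKM in the wild type, a log2 fold of 0.12. Both lay above the median gene, by 0.14 and 0.37, and 0 of 2 were 2-fold higher or lower. The median of these genes, 0.00, was 0.25 above that of all genes.

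Among 5 genes listed by symbol as regulators of carbon use, 1 was past 2-fold as deposited, downward, and 0 when measured from the median gene. Beside this, 6.98% of the 4831 genes that reached 10 RPKM in either library showed such a difference downward and 2.73% upward. The gene cre-1 (NCU08807) encodes the repressor of carbon catabolite repression, and it stood at 41.8 RPKM in Δpp-1 and 101 RPKM in the wild type. Its log2 fold was -1.25, with an interval of the log2 ratio from -1.43 to -1.11, and relative to the median gene it was -0.997. The other regulator genes, col-26, rca-1, vib-1 and acu-15, had log2 folds of -0.36, -0.11, 0.06 and 0.12. Of the 5 regulators, 3 lay above the median gene and 2 below it, and the list's median, -0.11, was 0.14 above that of all genes. That list median is the value of rca-1, also named myb-1, whose part in carbon use was not checked. Whether the level of cre-1 bears on the 5 genes was not tested.

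The steps that run against gluconeogenesis gave a ratio inside each library. For the fructose phosphate step, fbp-1 was set against emp-3 (NCU00629), the phosphofructokinase gene, at 143 RPKM in Δpp-1 and 151 RPKM in the wild type. The level of fbp-1 was 4.22% of that of emp-3 in Δpp-1, against 2.92% in the wild type, and the change between strains, 1.45 times, had an interval from 0.921 to 2.32 that held 1. For the PEP step, acu-6 was set against ace-8 (NCU06075), the pyruvate kinase gene, at 631 RPKM in Δpp-1 and 804 RPKM in the wild type. The level of acu-6 was 0.868% of that of ace-8 in Δpp-1, against 0.283% in the wild type, 3.07 times as high in Δpp-1 (interval 2.12 to 4.45). At both steps the glycolytic transcript was the far more abundant one in both libraries. The gene suc (NCU02505), for the pyruvate carboxylase that makes oxaloacetate for PEP carboxykinase, stood at 280 RPKM in Δpp-1 and 223 RPKM in the wild type, a log2 fold of 0.33, or 0.58 relative to the median gene.

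Besides ace-8, which was listed with the acetate-requirement genes and had a log2 fold of -0.35, or -0.10 relative to the median gene, 7 glycolysis genes were measured. Of these, 0 were 2-fold higher or lower, 4 were above equal RPKM and 7 above the median gene, with a list median of 0.12, or 0.36 relative to all genes. Of the 6885 genes, 2023 were above equal RPKM and 3442 above the median gene. The highest of the 7 was emp-1 (NCU02542), the hexokinase gene, at 238 RPKM in Δpp-1 and 159 RPKM in the wild type. The lowest was gpd-1 (NCU01528), for glyceraldehyde-3-phosphate dehydrogenase, with a log2 fold of -0.19. Between them lay emp-3 (-0.08), the aldolase gene fba (-0.04), the enolase gene emp-7 (0.12), the phosphoglycerate mutase gene emp-6 (0.22) and the phosphoglycerate kinase gene pgk (0.41).

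**Figure D3:**
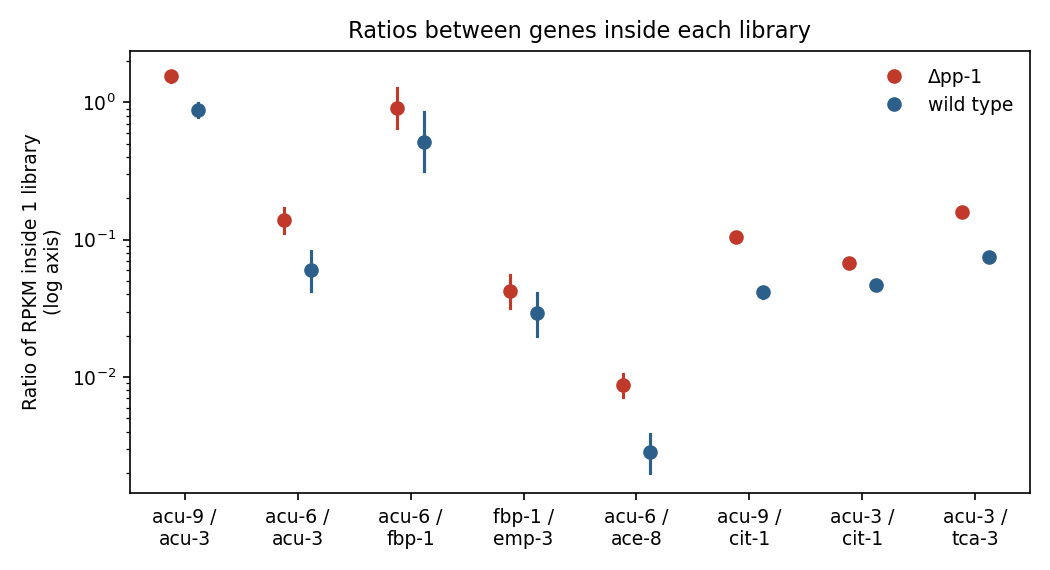
Ratios of RPKM between 2 genes inside 1 library, on a log axis, with 95% counting intervals as bars (smaller than the points where not seen), Δpp-1 left of the wild type. The ratios of acu-9 to acu-3, acu-6 to ace-8 and acu-3 to tca-3 are higher in Δpp-1 with no overlap of the bars, while the bars of acu-6 to fbp-1 and fbp-1 to emp-3 overlap.

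The TCA cycle shares citrate synthase, aconitase and malate dehydrogenase reactions with the glyoxylate route, and its genes lay on the other side of the median gene. Of 17 measured TCA genes, 16 were below equal RPKM and 16 below the median gene, 2 were at least 2-fold lower as deposited and 0 at least 2-fold higher. Of the 6885 genes, 4862 were below equal RPKM and 3442 below the median gene. Among the 4831 genes that reached 10 RPKM in either library, 6.98% were at least 2-fold lower and 2.73% higher. Measured from the median gene, 0 of 17 passed 2-fold in either direction. The list median was -0.61, or -0.36 relative to all genes. The aconitase gene tca-3 (NCU02366), whose enzyme makes the isocitrate that isocitrate lyase splits, stood at 247 RPKM in Δpp-1 and 506 RPKM in the wild type, a log2 fold of -1.03, or -0.78 relative to the median gene. The other member past 2-fold as deposited was tca-17 (NCU00720), at 34.3 RPKM in Δpp-1 and 78.8 RPKM in the wild type, a log2 fold of -1.18, or -0.93 relative to the median gene. The citrate synthase gene cit-1 (NCU01692) stood at 586 RPKM in Δpp-1 and 802 RPKM in the wild type. The member above the median gene was tca-2 (NCU02482), the least abundant of the list, at 19.4 RPKM in Δpp-1 and 13.7 RPKM in the wild type, and tca-11 (NCU07756) had the next highest log2 fold, -0.32.

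Set against these TCA genes inside each library, the bypass genes took a larger place in Δpp-1. The level of acu-3 was 16.0% of that of tca-3 in Δpp-1, against 7.47% in the wild type, 2.14 times as high in Δpp-1 (interval 1.91 to 2.40). For acu-3 against cit-1 the shares were 6.75% in Δpp-1, against 4.72% in the wild type, 1.43 times as high (interval 1.28 to 1.60). As deposited, acu-3 itself was nearly equal in the libraries (log2 fold 0.06), while tca-3 (-1.03) and cit-1 (-0.45) were lower in Δpp-1. For acu-9 against cit-1 they were 10.4% in Δpp-1, against 4.13% in the wild type, 2.53 times as high (interval 2.27 to 2.81). The transcripts of citrate synthase and aconitase were several times more abundant than those of the bypass in both libraries.

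Transcripts for enzymes around pyruvate lay on both sides of the median gene. The acetate-requirement genes ace-2 (NCU06482), ace-3 (NCU03004) and ace-4 (NCU07659), which encode parts of the pyruvate dehydrogenase complex, had log2 folds of -0.51, -0.70 and -0.71, or -0.27, -0.45 and -0.46 relative to the median gene. Together with ace-8 and suc, 4 of these 5 genes lay below the median gene and 0 were past 2-fold. Their median was -0.51, or -0.27 relative to all genes. The ethanol branch leads from pyruvate through acetaldehyde. Its pyruvate decarboxylase gene cfp (NCU02193) and alcohol dehydrogenase gene adh-1 (NCU01754) were both at least 2-fold higher in Δpp-1, with log2 folds of 3.34 and 3.99. The list of this branch held only these 2 genes and none for an aldehyde dehydrogenase. Of all 4831 genes that reached 10 RPKM in either library, 2.73% were at least 2-fold higher and 6.98% lower. The ratio of cfp to acu-5 was 13.3 in Δpp-1, against 1.21 in the wild type, so the transcript of pyruvate decarboxylase and that of acetyl-CoA synthetase, close in level in the wild type, stood far apart in Δpp-1.

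**Figure D4:**
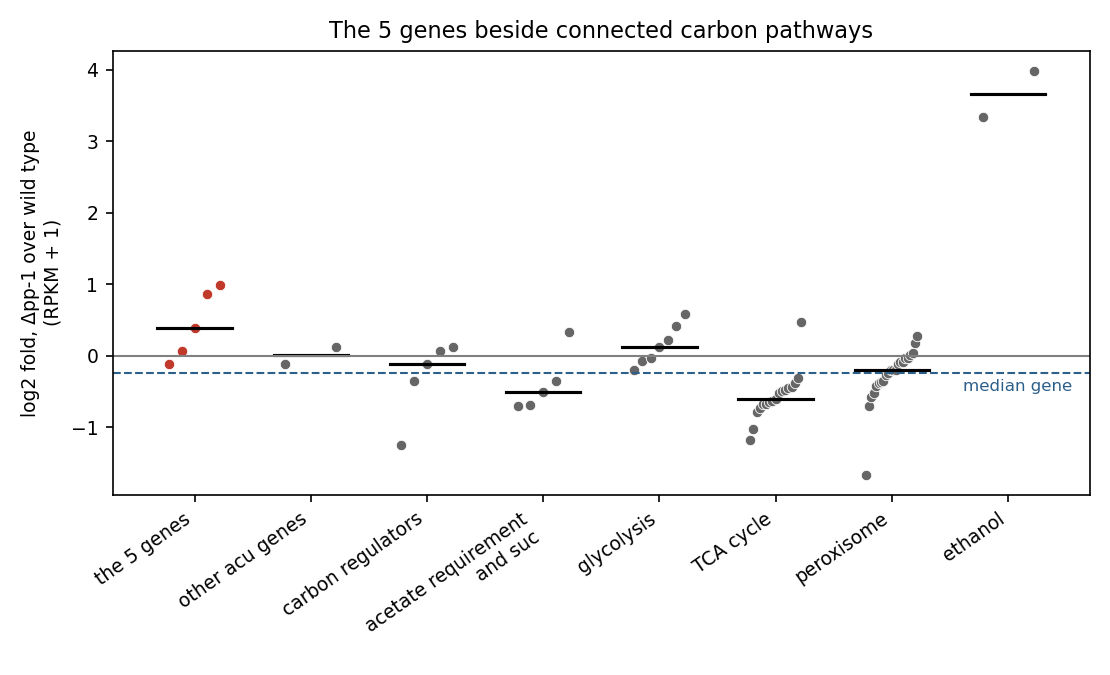
Each point is the log2 fold of 1 gene, Δpp-1 over wild type with 1 RPKM added, each black bar the median of its group, and the dashed line the median gene at -0.25. The 5 genes, in red, run from -0.11 to 0.99 and lie above the dashed line, as do the 7 genes drawn under glycolysis, which leave out the pyruvate kinase gene ace-8, drawn with the acetate-requirement genes and below the line. Of 17 TCA genes, 16 lie below it.

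Conidial transcripts were compared beside these genes, because the RefSeq gene table gives con-3 as another name of acu-6, and con genes were first described as transcripts of conidiation. Of 8 measured conidial genes, 4 reached 10 RPKM in either library. These 4 all had at least 2-fold more in Δpp-1, and 0 of the 8 had at least 2-fold less. Beside this, the 4831 genes at that level showed such a difference upward in 2.73% and downward in 6.98%. Of the 4, acon-2, eas and con-6 reached 10 RPKM in Δpp-1 only, so the rule could hardly have called them lower. The levels of all 8 conidial genes ran from 0.313 to 71.3 RPKM in Δpp-1 and from 0 to 11.3 RPKM in the wild type. They summed to 154 RPKM in Δpp-1 against 45.1 RPKM in the wild type. The genes past 2-fold were con-10, con-6, the hydrophobin gene eas and acon-2, while the regulator genes fl and acon-3 and the gene con-8 had log2 folds of -0.07, -0.76 and -0.23. The gene con-13 was listed at 0 in the wild type. In bulk RNA, more cells of a type and more RNA per cell cannot be told apart, and the part of conidial cells in the levels of acu-6 and acu-9 was not tested.

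The genes on either side of each of the 5 in assembly NC12 were also compared. Of 10 neighbours 9 were measured, and 0 had a span that overlaps the gene beside it. With no minimum level, 0 of the 9 were 2-fold higher in Δpp-1 and 1 was 2-fold lower. Counted in the same way, all 8564 genes gave shares of 2.94% upward and 6.08% downward. The lower neighbour was NCU04796, beside fbp-1, at 7.08 RPKM in Δpp-1 and 19.6 RPKM in the wild type. The gene acu-9 lies next to the TCA gene tca-14 (NCU10008), at 169 RPKM in Δpp-1 and 239 RPKM in the wild type, a log2 fold of -0.50 against 0.86 for acu-9. The gene acu-6 lies between NCU10012, listed at 0 in both libraries, and NCU09872, at 0.556 RPKM in Δpp-1 and listed at 0 in the wild type.

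Among 1098 genes with a symbol, those nearest to each of the 5 in level were found by the distance between their pairs of log2 values in the 2 libraries. Nearest to acu-9 were gna-2, at 69.7 RPKM in Δpp-1 and 33.1 RPKM in the wild type, at a distance of 0.19, and rib-5 at 0.31. Nearest to acu-6 were gh47-2, at 4.92 RPKM in Δpp-1 and 2.61 RPKM in the wild type, at 0.19, and bek-1 at 0.25. For acu-3 they were mcb at 0.04 and frh at 0.13, for acu-5 erp38 at 0.05 and pcb-1 at 0.06, and for fbp-1 acr-2 at 0.18 and nik-2 at 0.21. With 2 libraries such nearness says only that level and fold were alike.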

How the data were processed

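Each library came as 1 deposited table of gene identifiers and RPKM values, the unit per the file headers. Per the submitters' processing notes, TopHat and Cufflinks were among the tools, and neither a version nor a role is named there. The genome build and annotation are not given in the sources used here. Identifiers listed more than once (238, always with 1 value) were counted once. Per the labels' protocols the library steps do not mark strand.

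Symbols, spans and neighbours came from the RefSeq gene table of assembly NC12. Its coordinates gave spans, the order of genes and overlaps, and none are printed, since the build of the files is unknown. Of 8564 identifiers, 1099 had a symbol. The members and lists were chosen with earlier results of these data known. Lists were made by symbol, and tca symbols, the conidial list and neighbours were added after the files were opened. The genes named were pp-1, the 5 members, all of a short list or the 2 highest and 2 lowest of a list over 10, genes used in a ratio, and the 2 nearest genes in level. Roles of genes other than the 5 are background knowledge of their symbols.

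Fold differences are log2((Δpp-1 + 1)/(wild type + 1)), in RPKM. Products of RPKM and span in kilobases piled up at whole multiples of 0.107 (Δpp-1) and 0.127 (wild type), taken as the worth of 1 read. Of the genes at up to 12 steps, 16 of 34 in Δpp-1 and 18 of 38 in the wild type were at an odd number of steps, which 2 steps per read would not give, but 0 genes were at 1 step. Reads of acu-3, acu-9 and acu-6 came from the only gene length, from 0.5 of the span to the whole span, that gave whole reads in both libraries. For other genes reads were computed with 0.5 of the span, which is short and widens the interval. Intervals are exact binomial (Clopper-Pearson) for ratios of 2 values, and for changes of a ratio between strains the conditional interval of an odds ratio, or its normal approximation where a gene had over 5000 reads. In all, 12 ratios between genes were computed, with scipy 1.17.1 in Python 3.11.15. The step size, the whole reads, the 2-fold rule and the binomial interval were first tested on simulated counts. That simulation took 1 step as 1 read, and it covered neither reads from 0.5 of the span nor the odds-ratio intervals.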

Additional observations from a re-analysis of the deposited data

How the results depend on the processing

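Alternatives were other pseudocounts, scalings, filters and fold thresholds. No paired analysis was possible because there was a single library of either strain, and no leave-one-out could be run. Scaling both libraries by their median, to a sum of 1000000 and by their upper quartile, in that order, gave log2 folds of 0.31, 0.46 and 0.30 for acu-3 (0.06 as deposited) and 1.12, 1.27 and 1.10 for acu-9 (0.86). For acu-5 (-0.11) they gave 0.14, 0.29 and 0.13, which turns its direction. Each of these scalings lifts all Δpp-1 values against those of the wild type by construction. Pseudocounts of 0.1 and 5 gave acu-6 log2 folds of 1.23 and 0.53, and the scalings 1.18, 1.46 and 1.17 (0.99 as deposited). For fbp-1 (0.38) the 5 alternatives ran from 0.23 to 0.78. The median of the 5 genes (0.38) ran from 0.063 over members averaging 10 RPKM or more to 0.78 with the sum of 1000000. Medians of some lists turned direction. For other acu genes (0.0022 as deposited) this was with a pseudocount of 5 (-0.0043). For peroxisome genes (-0.21) it was with the 3 scalings (0.039, 0.18 and 0.024), as for carbon regulators (-0.11, then 0.14, 0.28 and 0.12). With the sum of 1000000 the median was -0.21 for TCA genes, -0.12 for acetate-requirement genes, 0.51 for glycolysis and 0.40 for other acu genes. Against 132 genes at least 2-fold higher and 337 lower, median scaling counted 210 and 219, the sum of 1000000 288 and 197, and the upper quartile 200 and 225. Dropping the filter, or lowering it to 1 RPKM, gave 252 and 521, and raising it to 30 RPKM gave 67 and 179. A threshold of 1.5-fold gave 295 and 1125, and one of 4-fold 39 and 113. These last alternatives let more or fewer genes pass by construction. All 12 changes of a ratio kept their direction with 1 RPKM added to both genes. The interval computed with the whole span, added after seeing the data, was narrower for each of the 5 genes. With 2 steps per read, also added after seeing the data, intervals were wider: the log2 ratio of fbp-1 ran from -0.48 to 1.43, that of acu-5 from -0.24 to 0.016, and the ratio of acu-9 to acu-3 from 1.35 to 1.77 in Δpp-1 and from 0.740 to 1.04 in the wild type, the last of which holds 1. Depth limits fbp-1 and acu-6 most.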

Other observations

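The glyoxysome that holds the bypass enzymes is a form of peroxisome, and its assembly genes did not stand apart from other genes. Of 22 measured genes for peroxisome assembly, fatty acid oxidation and the Woronin body, 13 lay above the median gene and 9 below it, and the list's median of -0.21 was 0.04 above that of all genes. The highest were pex24 (NCU06637), at 19.8 RPKM in Δpp-1 and 16.2 RPKM in the wild type, and pex7 (NCU07662), a receptor gene for protein import, at 12.9 RPKM in Δpp-1 and 11.3 RPKM in the wild type. The lowest were the Woronin body gene hex-1 (NCU08332), with a log2 fold of -1.67, and fox-2 (NCU08828), for an enzyme of fatty acid beta-oxidation. The level of fox-2 was 29.8 RPKM in Δpp-1 and 49.0 RPKM in the wild type. Of the 21 listed genes that reached 10 RPKM in either library, hex-1 alone was past 2-fold. Of all 4831 genes at that level, 6.98% were at least 2-fold lower and 2.73% higher. The gene pex5 (NCU02960), for the other import receptor, stood at 41.2 RPKM in Δpp-1 and 62.0 RPKM in the wild type, and is named here having been picked with its value in view. The sum of these genes was 920 RPKM in Δpp-1 and 1983 RPKM in the wild type, of which hex-1 alone made up 448 RPKM in Δpp-1 and 1422 RPKM in the wild type.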
